A study of Mus musculus with 14 samples.

Results

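Genes whose symbol begins with Kcn encode the pore-forming subunits of potassium channels and many of the subunits that assemble with them. Of the 24444 genes in each of 2 deposited tables, 98 carry such a symbol. They comprise 94 protein-coding genes and 4 noncoding antisense genes (Kcnq1ot1, Kcnmb4os1, Kcnmb4os2 and Kcnd3os), and they were chosen by symbol alone. Polyadenylated RNA of the cortex was sequenced from 14 mice in 2 models of the microRNA family miR-29. In miR29Nestin mice (n = 3, postnatal day 40), floxed miR-29ab1 and miR-29b2c alleles were deleted by Nestin-Cre, which recombines in the progenitors of the nervous system and so marks the neurons and glia that descend from them. Their controls are labelled miR29WT (n = 3, the same age), and the labels do not say whether they carried floxed alleles or Cre. In Dnmt3a-mi5 mice (n = 4, 4.5 months), the gene of the DNA methyltransferase Dnmt3a had lost its 3′ UTR matches to miR-29 through a CRISPR/Cas9 knock-in, while miR-29 itself was left intact. They were compared with Dnmt3a-WT mice (n = 4, the same age), and the labels as used here do not give the zygosity of the mutated allele. Microglia and endothelial cells do not descend from neural progenitors, so the deletion is not expected in them.

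Potassium channels let potassium leave the cell and so set the resting potential, repolarise the action potential and limit how fast a neuron can fire. Voltage-gated (Kv) channels are tetramers of alpha subunits: Kv1 channels act near threshold along axons, Kv3 channels close fast enough to permit high firing rates and are prominent in parvalbumin interneurons, and Kv4 channels carry the transient A current of dendrites. Silent subunits form no channel alone but change Kv2 channels, KCNQ subunits carry the M current, Kir channels rectify inwardly, and K2P channels are open at rest.

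MicroRNAs lower transcripts that carry a match to their seed, bases 2 to 8. The mature miR-29 sequences (RefSeq, GRCm38.p6) are shown because both models act on them or on their sites. Capitals mark the seed, which the 3 sequences share. The genes lie on chromosome 1 (miR-29b-2 and miR-29c) and chromosome 6 (miR-29a and miR-29b-1), and both copies of miR-29b give the same mature RNA.
mmu-miR-29a-3p: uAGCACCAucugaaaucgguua
mmu-miR-29b-3p: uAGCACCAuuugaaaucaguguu
mmu-miR-29c-3p: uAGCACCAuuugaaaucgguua

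The site complementary to the seed is TGGTGCT, searched on the transcript strand in the longest annotated 3′ UTR (GENCODE M21, GRCm38). It was found in 16 of the 94 members with a 3′ UTR (17.0%), beside 13.5% of all 20111 genes with one. Sites of members that changed in miR29Nestin cortex follow, with the site in capitals inside 30 bases of the 3′ UTR.
Kcnip2, chr19:45793307-45793313, minus strand: ctagacggaatatctcctgctaTGGTGCTt
Kcnma1, chr14:23292433-23292439, minus strand: aactggagaagagaataaatgcTGGTGCTc
Kcnc2, chr10:112465109-112465115, plus strand: ggtaaggaattaacatgctgtcTGGTGCTg
Kcnc2, chr10:112465325-112465331, plus strand: gggactgtggctggaactgagaTGGTGCTc
Kcnh1, chr1:192507340-192507346, plus strand: tgtcattcaaattcccacatcgTGGTGCTc
Kcnh1, chr1:192508647-192508653, plus strand: ccgccacgcttggctttgttttTGGTGCTg

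Values are normalised counts, that is, counts divided by the depth of the library, recovered from the deposited log2 values. The miR29 libraries held 9.17 to 14.4 M reads in genes, and the depth of the Dnmt3a libraries is unknown. Dnmt3a, which carries miR-29 sites, stood at 5275 to 5859 counts in miR29Nestin and 1605 to 1724 in miR29WT libraries, and at 1948 to 2249 in Dnmt3a-mi5 and 1062 to 1234 in Dnmt3a-WT libraries. A gene was tested when the mean of its deposited log2 values reached a cut. That cut corresponds to about 48.0 counts in the miR29 table and 80.1 in the Dnmt3a table. This left 68 and 63 members, 62 of them in both and 29 in neither, and 13 members had a mean of at most 3 counts in every group.

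In miR29WT cortex the most abundant members, per kilobase of the longest transcript, were Kcnab2 with 1082 ± 167 counts per kb (SD, n = 3) and Kcna1 with 992 ± 107. Kcnab2 is a beta subunit of Kv1 channels and Kcna1 a Kv1 alpha subunit. These neighbours in the order did not differ beyond their spread. Lower in the order were the inward rectifier Kcnj4 with 789 ± 24.5 counts per kb and the Kv4 partner Kcnip2 with 779 ± 22.6, whose ranges over libraries overlapped. The order depends on the length used: over the union of exons Kcna1 ranked 1, Kcnj4 2 and Kcnab2 3. In Dnmt3a-WT cortex, normalised separately, Kcnab2 was again at the top with 1447 ± 129 counts per kb (SD, n = 4), and Kcna1 had 723 ± 101.

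**Figure D1:**
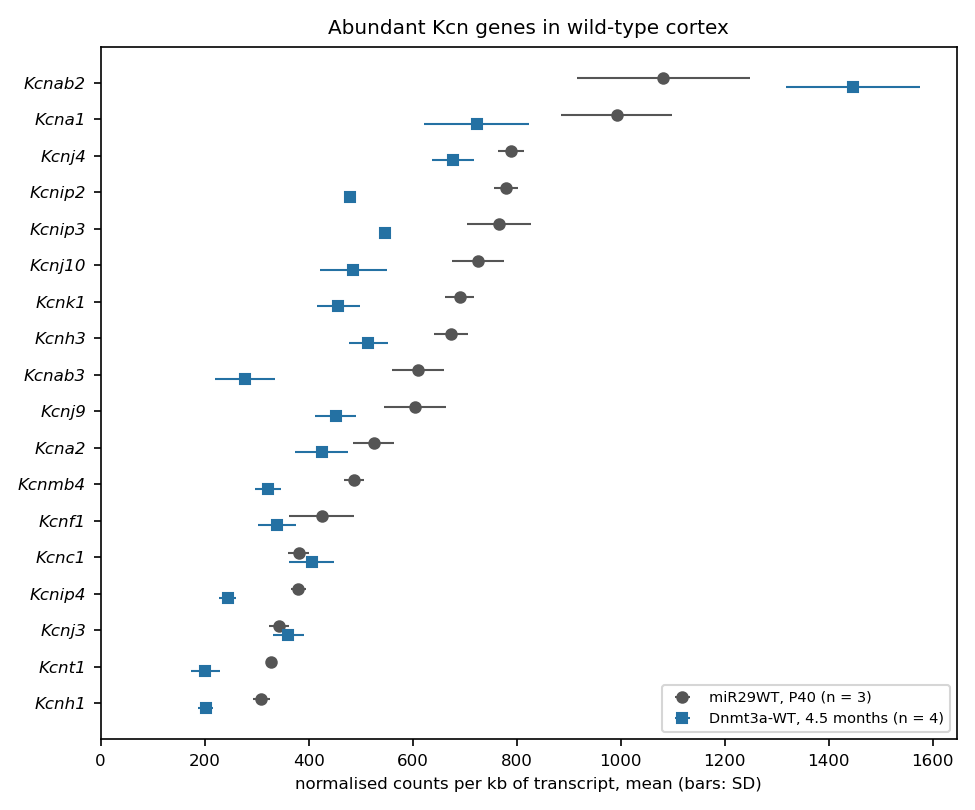
Level of 18 abundant members in wild-type cortex, in normalised counts per kilobase of the longest transcript (x axis); points are means and bars SDs over 3 miR29WT and 4 Dnmt3a-WT libraries. Kcnab2 stands at the top in both tables at 1082 and 1447 counts per kb; the tables were normalised separately, so levels are not compared between them.

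Potassium channel genes changed in both directions in cortex without miR-29. In miR29Nestin, 25 of 68 tested members passed an adjusted p of 0.05 (36.8%), beside 19.1% of all genes tested. Of these, 8 rose (background 9.02%) and 17 fell (background 10%). The largest rise was in Kcng4 (3.33-fold), and the largest falls by log2 difference were in Kcns2 (1.68-fold lower) and Kcnq3 (1.76-fold lower). By fold, Kcnk9 fell further, with means of 4.45 counts per kb in miR29Nestin and 8.52 in miR29WT. Differences are given on the deposited log2 scale, which understates the change of genes with low counts. Their median over the 68 members was -0.08 (-0.01 over all genes) and their median absolute size 0.17 (0.10 over all genes). The groups did not overlap for 36 members (52.9%; 37.3% of all genes), with 12 higher (18.6% of all genes) and 24 lower (18.7% of all genes). At an unadjusted p under 0.05 there were 40 members (33% of all genes). With the replicate number as a block, 35 members passed (25.3% of all genes), 12 higher (11.7%) and 23 lower (13.6%), and with a term for sex 30 passed (20.8%). Every adjusted p is from limma over all genes of the table. For 1 gene alone, an exact 2-sided permutation test of 3 against 3 libraries cannot give a p below 0.1. Because the tissue was taken whole, fewer cells of a type and less RNA per cell cannot be told apart.

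**Figure D2:**
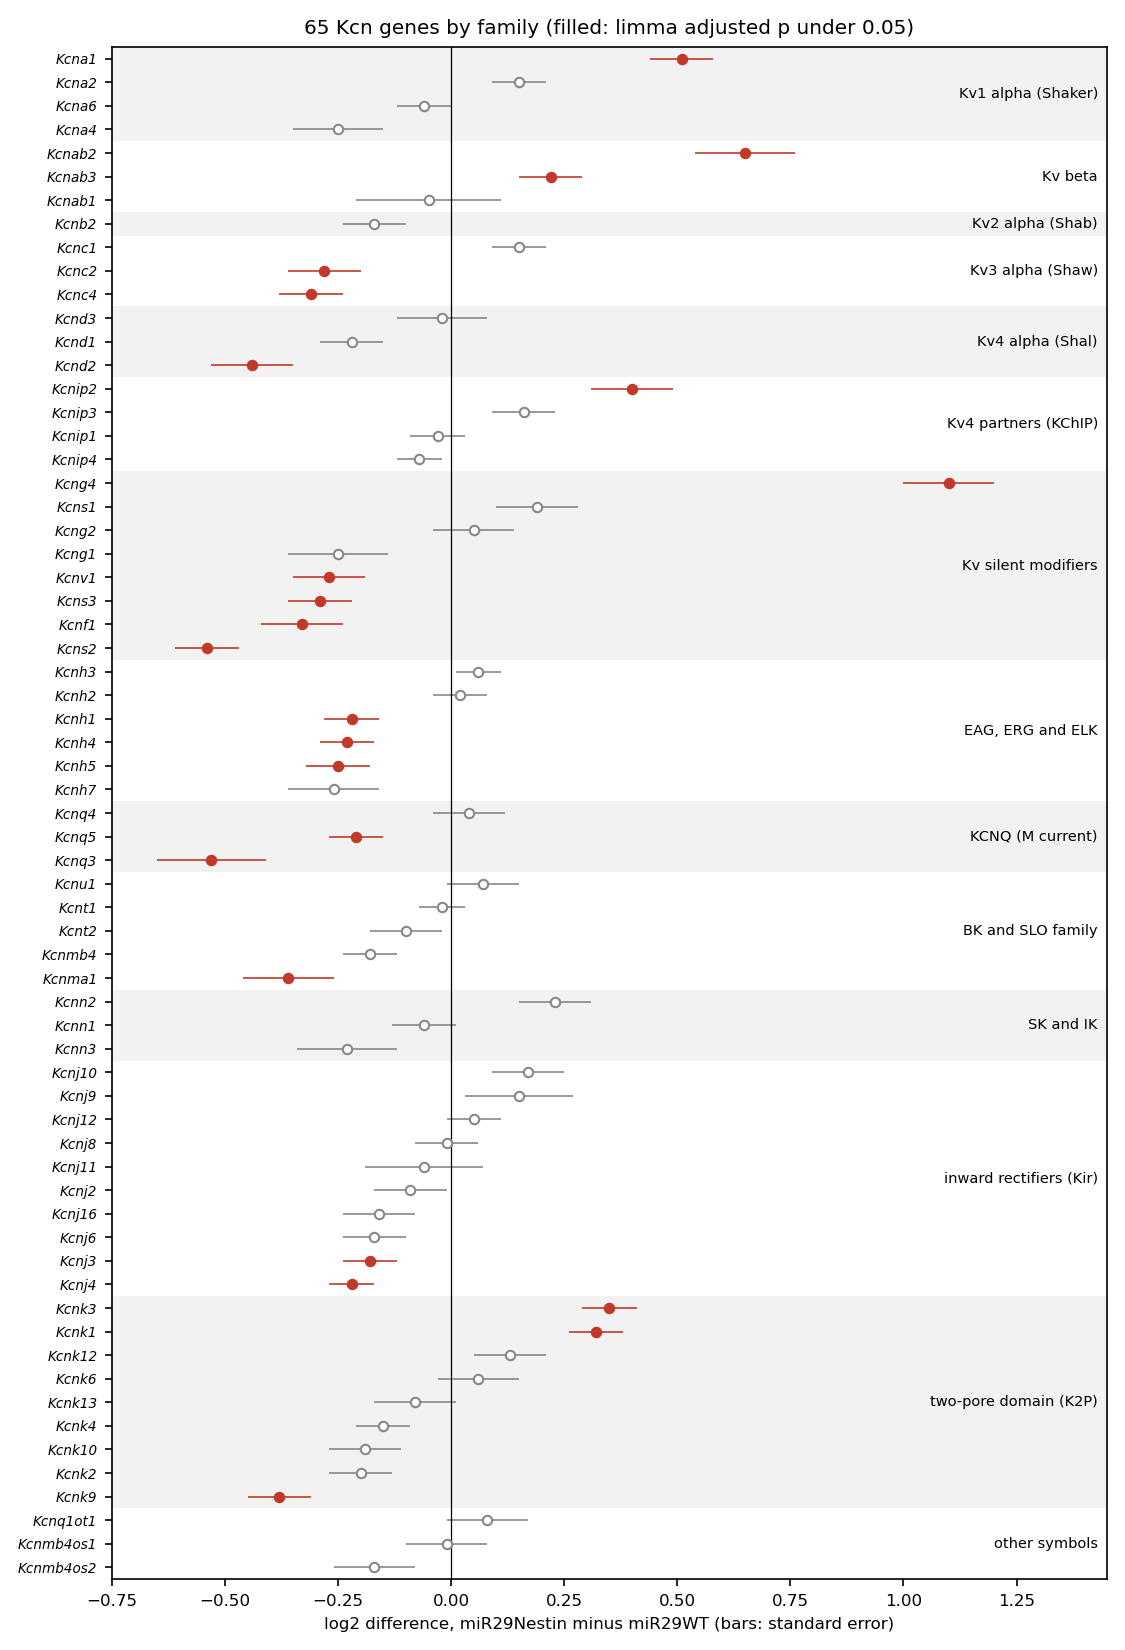
Log2 difference between miR29Nestin and miR29WT (x axis) for 65 tested members, grouped by family; bars are standard errors and filled points have an adjusted p under 0.05. Of the filled points, 7 lie above 0, up to 1.10 for Kcng4, and 16 below 0, down to -0.54 for Kcns2.

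Among Kv3 alpha subunits, Kcnc4 and Kcnc2 fell. Kcnc4 stood at 894, 845 and 875 counts in miR29Nestin libraries 1 to 3 and at 1253, 1041 and 1078 in miR29WT libraries, the order used below. Every mutant library was below every control, a log2 difference of -0.31 ± 0.07 (SE, adjusted p = 0.00892). Kcnc2, whose channel is enriched in parvalbumin interneurons together with that of Kcnc1, stood at 816, 848 and 1033 counts against 1125, 1049 and 1202. Its groups were close but did not overlap (-0.28 ± 0.08, adjusted p = 0.0311). Kcnc1 had a difference of 0.15 ± 0.06 and did not pass (adjusted p = 0.0788; 0.0228 with the replicate number as a block).

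Of 4 tested Kv1 alpha genes, 1 rose. Kcna1 (chromosome 6, 126640397 to 126646384), whose loss causes seizures in mice, stood at 5541, 5724 and 5956 counts against 4054, 3543 and 4399. The lowest mutant library exceeded the highest control (0.51 ± 0.07, adjusted p = 0.000658). Kcna2, its usual partner, had a difference of 0.15 ± 0.06 (adjusted p = 0.0999; 0.022 with the block). Among the beta subunits, which bind Kv1 channels from the cytoplasm, 2 of 3 rose. Kcnab2 (chromosome 4, 152390742 to 152477871) stood at 7477, 5590 and 7291 counts against 4987, 3747 and 3999. Library 2 was the lowest of each group, and the groups did not overlap (0.65 ± 0.11, adjusted p = 0.00301). Kcnab3 stood at 1984, 1755 and 1779 counts against 1673, 1420 and 1554, a smaller step (0.22 ± 0.07, adjusted p = 0.0389).

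For Kv4 channels, an alpha subunit fell while a partner rose. Kcnd2 (chromosome 6, 21215503 to 21729805), the main alpha subunit of the dendritic A current, stood at 520, 650 and 750 counts against 918, 886 and 966. All mutant libraries were lower and more spread than the controls (-0.44 ± 0.09, adjusted p = 0.00708). Kcnip2, a calcium-binding KChIP protein that carries Kv4 channels to the surface, stood at 3091, 2901 and 3872 counts against 2503, 2404 and 2366. Mutant library 3 was the highest, and the lowest mutant still exceeded the controls (0.40 ± 0.09, adjusted p = 0.00844). Kcnd1 (-0.22 ± 0.07, adjusted p = 0.0555; 0.0383 with the block) and Kcnd3 (-0.02 ± 0.10, adjusted p = 0.911) did not pass, nor did the other 3 KChIP genes.

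Of 8 tested silent subunits, 1 rose and 4 fell. Kcng4 (chromosome 8, 119623854 to 119635680) stood at 505, 382 and 515 counts against 162, 104 and 155. It had the largest difference of all members (1.10 ± 0.10, adjusted p = 7.59e-05). Kcns2 (chromosome 15, 34837355 to 34843407) stood at 272, 336 and 336 counts against 521, 526 and 540. Its controls were tightly grouped and all mutant libraries were far below them (-0.54 ± 0.07, adjusted p = 0.000411). Kcns3 stood at 64.4, 62.3 and 72.5 counts against 124, 93.2 and 104, without overlap (-0.29 ± 0.07, adjusted p = 0.0161). Kcnf1 (-0.33 ± 0.09, adjusted p = 0.0287) also fell, with overlapping groups, and so did Kcnv1 (-0.27 ± 0.08, adjusted p = 0.0361).

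The tested members include 4 KCNQ genes, 5 genes of BK and related channels, and 6 EAG, ERG and ELK genes. Among them 6 fell (10% of all genes did) and none rose, and the others did not pass. Kcnq3 (chromosome 15, 65986387 to 66286642), an M-current subunit, stood at 132, 197 and 251 counts against 294, 327 and 398. Both groups were spread and did not overlap (-0.53 ± 0.12, adjusted p = 0.0121). Kcnq5, another M-current subunit, fell by 0.21 (SE 0.06, adjusted p = 0.037). Kcnma1, the pore of the BK channel that opens with calcium and voltage, stood at 531, 654 and 797 counts against 849, 865 and 962. Mutant library 3 came close to the controls (-0.36 ± 0.10, adjusted p = 0.0277). In the EAG, ERG and ELK family 3 of 6 tested genes fell: Kcnh5 by 0.25 (adjusted p = 0.0255), Kcnh4 by 0.23 (adjusted p = 0.0289) and Kcnh1 by 0.22 (adjusted p = 0.0256). None of the 3 tested SK genes passed in the main fit, and 2 did with the block, in opposite directions. Kcnn2 had a difference of 0.23 ± 0.08 (adjusted p = 0.0716, 0.0348 with the block and 0.0485 with a term for sex). Kcnn3 had a difference of -0.23 ± 0.11 (adjusted p = 0.157, 0.0366 with the block).

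Among inward rectifiers 2 of 10 fell and none rose. They were Kcnj4 (-0.22 ± 0.05, adjusted p = 0.0112) and Kcnj3 (-0.18 ± 0.06, adjusted p = 0.0475), a subunit of the channels opened by G proteins. Kcnj10, the main potassium channel of astrocytes, had a difference of 0.17 ± 0.08 (adjusted p = 0.164; 0.0487 with the block). Of 9 K2P leak channels, 2 rose and 1 fell. Kcnk3 stood at 551, 562 and 516 counts against 413, 372 and 385, well apart (0.35 ± 0.06, adjusted p = 0.00236). Kcnk1 stood at 1826, 2050 and 2026 counts against 1602, 1481 and 1544, also apart (0.32 ± 0.06, adjusted p = 0.00358). Kcnk9, an acid-sensitive channel like Kcnk3, went the other way, with 59.4, 46.0 and 58.8 counts against 92.4, 103 and 119 (-0.38 ± 0.07, adjusted p = 0.00438). No KCNE partner was tested: Kcne1l had the highest level of the 5, at 39.2 ± 7.06 counts in miR29Nestin and 43.4 ± 9.49 in miR29WT (SD, n = 3).

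**Figure D3:**
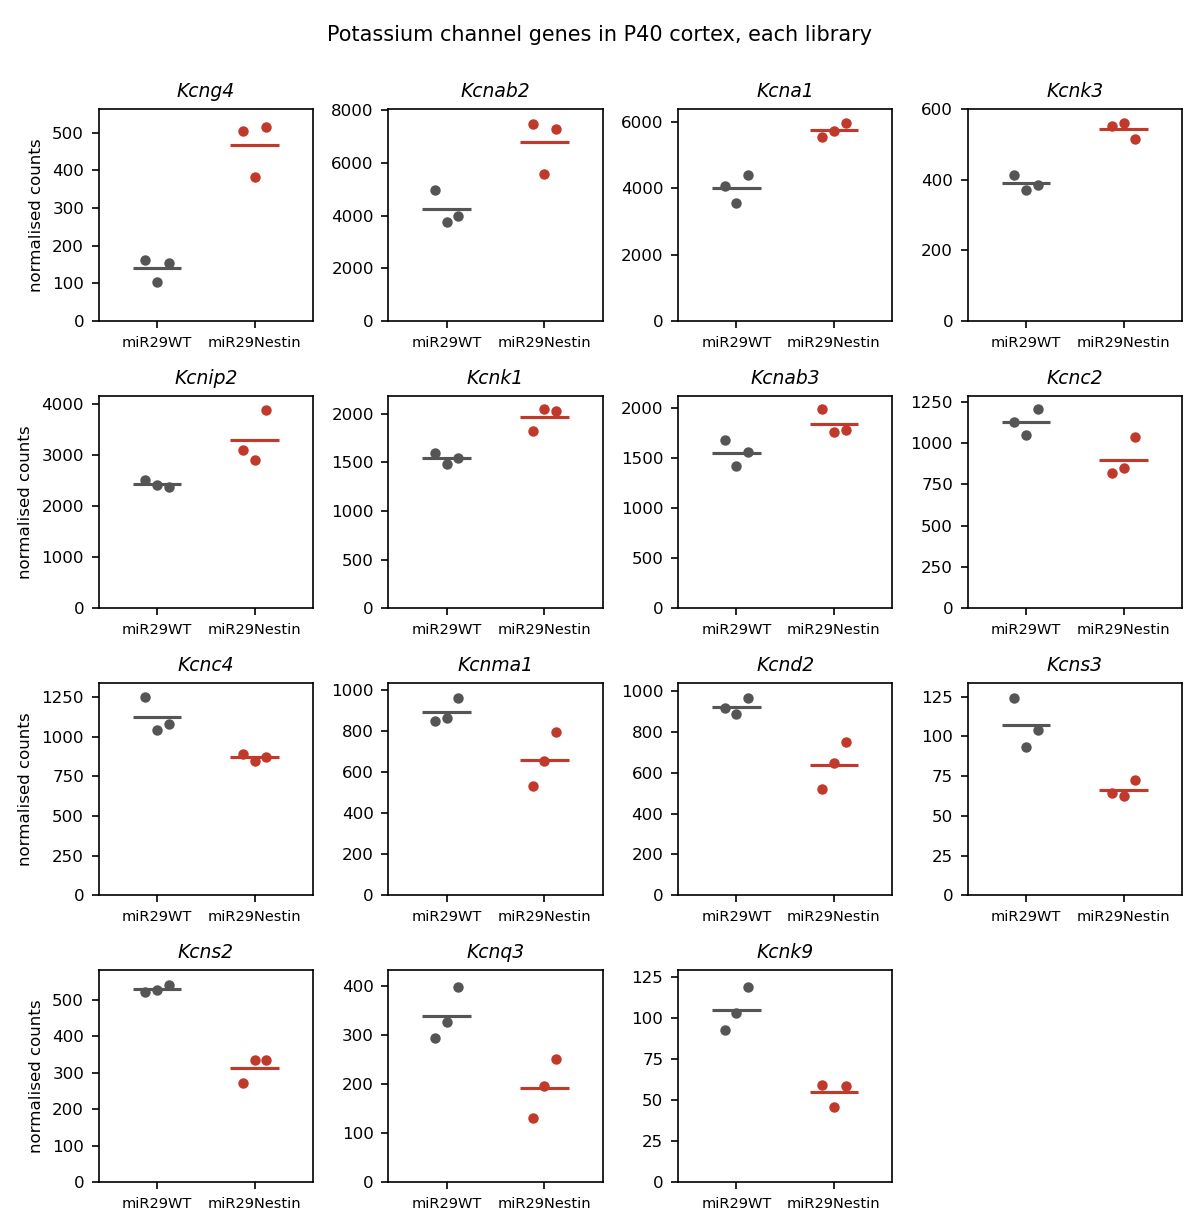
Normalised counts (y axis, from 0) of 7 large rises and the 8 largest falls, by log2 difference, among members whose groups do not overlap. Each point is 1 library and each line the mean of 3. Kcng4 has 382 to 515 counts in miR29Nestin and 104 to 162 in miR29WT, and Kcns2 272 to 336 against 521 to 540.

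When each library was left out in turn, all 25 differences kept their direction and 11 calls passed in all 6 fits. They include the rises of Kcng4, Kcnab2, Kcna1, Kcnip2, Kcnk3 and Kcnk1 and the falls of Kcns2, Kcnd2, Kcnk9 and Kcnc4. The other 14 did not pass in at least 1 fit. Kcnq3 (adjusted p = 0.0541) and Kcnj4 (0.0574) missed only without miR29WT library 3, and Kcns3 without miR29Nestin library 2 (0.0617) or miR29WT library 1 (0.0537). The other 11, with adjusted p up to 0.155, missed in 4 or 5 of the 6 fits, among them Kcnab3, Kcnc2, Kcnf1, Kcnh1, Kcnh4, Kcnh5, Kcnj3, Kcnma1, Kcnq5 and Kcnv1. Leaving out miR29Nestin library 2 or miR29WT library 3 gave 14 calls, and leaving out miR29Nestin library 1 gave 16. Over all 12014 tested genes, 2289 were called in the main fit and 1474, 1419 and 1956 in these fits, in that order. The share of all genes that passed in all 6 fits was not computed.

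The partners without a Kcn symbol, 25 genes whose products assemble with, traffic or anchor these channels, were described the same way. Of 23 tested, 1 rose (9.02% of all genes did) and 4 fell (10% of all genes), and 5 calls in 23 is near the 19.1% of all genes called. Their median difference was -0.08 (-0.01 over all genes). Sptbn4, the spectrin that anchors channels at the axon initial segment, rose (0.19 ± 0.05, adjusted p = 0.0261). Dlg4, the PSD-95 scaffold, fell (-0.33 ± 0.05, adjusted p = 0.000683), as did Dpp10, an auxiliary subunit of Kv4 channels (-0.33 ± 0.06, adjusted p = 0.00401). Lrrc55, an auxiliary subunit of BK channels, fell with its pore gene Kcnma1 (-0.54 ± 0.11, adjusted p = 0.0068). Cntnap2, which clusters Kv1 channels beside nodes, fell (-0.31 ± 0.09, adjusted p = 0.0356).

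Markers of cell types moved in the same libraries. Of 7 parvalbumin interneuron markers 2 rose and 2 fell: Pvalb by 0.78 ± 0.07 (adjusted p = 4.3e-05) and Gad1 by 0.23 ± 0.05 upward, Gad2 by -0.52 ± 0.09 and Erbb4 by -0.39 ± 0.09. Their summed level was 9323 to 10875 counts in miR29Nestin and 8970 to 9667 in miR29WT libraries. Of 6 excitatory neuron markers 4 fell, among them Neurod2 (-0.34 ± 0.06) and Slc17a7 (-0.27 ± 0.05), with sums of 61934 to 65813 against 70319 to 81153. Of 8 astrocyte markers 4 rose, among them Gjb6 (0.64 ± 0.07) and Gfap (0.54 ± 0.06), and 1 fell, with sums of 56862 to 61318 against 51780 to 53787. Of the remaining lists, 2 of 6 markers of somatostatin and other interneurons fell (Sst and Calb2; sums of 9938 to 12500 against 11787 to 12493). Of oligodendrocyte markers 2 of 6 rose (103728 to 115825 against 95224 to 105921), and of markers of their precursors 2 of 4 (3052 to 3332 against 2434 to 2797). Of 5 pericyte and smooth muscle markers 1 rose and 1 fell, and of 3 tested leptomeningeal markers 1 rose. No microglial, endothelial, choroid plexus or striatal marker passed. None of these markers was at 0 in a whole group, and their part in the channel differences was not tested.

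Sites were found among members of both directions. A site was present in 2 of the 8 members that rose, such as Kcnip2, beside 31.8% of all genes that rose. It was present in 4 of the 17 that fell, such as Kcnma1, Kcnc2 and Kcnh1, beside 167 of all 1189 genes that fell, and in 7 of 40 tested members that did not pass. The members that fell had a median gene span of 94.2 kb, and 8 of 17 exceeded 100 kb, while the members that rose had a median of 19.2 kb and none exceeded it. Kcns2, the largest fall by log2 difference, spans 6.1 kb. The 43 tested members that did not pass had a median of 52.5 kb with 27.9% over 100 kb, and all tested genes 26.8 kb with 16.4%. Over all genes that fell the median was 53.8 kb with 32.2% over 100 kb, and over all genes that rose 21.4 kb with 14.3%. Of the 26 members called in either model, 9 share exon sequence of 57 to 1080 bases with another annotated gene, 8 of them on the opposite strand. Other genes were not searched for shared sequence, so this count has no background. Libraries were stranded, but whether counting used strand is not given in the sources used here.

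In Dnmt3a-mi5 cortex, 1 of 63 tested members passed, beside 0.797% of all genes tested. Kcnip3, a KChIP partner of Kv4 channels that is also known as a transcriptional repressor, stood at 1679, 1723, 1781 and 1641 counts in Dnmt3a-mi5 libraries and at 1493, 1499, 1459 and 1518 in Dnmt3a-WT libraries. The groups did not overlap (0.16 ± 0.03, adjusted p = 0.0495), a 1.14-fold rise beside 0.225% of all genes called higher. An effect with 2 levels had been removed from this table before deposit, and with a term for it no member passed (0.122% of all genes did; Kcnip3 adjusted p = 0.132). Nor did it pass in 7 of the 8 fits without 1 library, with adjusted p of 0.0847 to 0.134, the exception being Dnmt3a-WT library 2. In miR29Nestin its difference was also 0.16 but did not pass (SE 0.07, adjusted p = 0.135). The groups were apart for 8 members (12.7%; 12% of all genes), 3 higher (5.33% of all genes) and 5 lower (6.67% of all genes). At an unadjusted p under 0.05 there were 17 members (19% of all genes). Of 5 microglial markers 2 fell in Dnmt3a-mi5, Cx3cr1 (adjusted p = 0.00919) and P2ry12 (0.0495). Of 8 astrocyte markers 1 fell, Slc1a2 (0.0478), and of 4 endothelial markers 1 rose, Flt1 (0.0473). No marker of the other cell type lists passed. The summed level of the 5 microglial markers was 2345 to 2678 counts in Dnmt3a-mi5 and 2717 to 2860 in Dnmt3a-WT libraries, and its part in the channel values was not tested.

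The next smallest adjusted p value belonged to Kcnv1, a gene also called in miR29Nestin. This silent subunit stood at 788, 849, 968 and 862 counts in Dnmt3a-mi5 and 1333, 1071, 1052 and 1105 in Dnmt3a-WT libraries. Its groups were apart (-0.29 ± 0.06, adjusted p = 0.0574), beside -0.27 ± 0.08 in miR29Nestin. With the removed-effect term its adjusted p was 0.131.

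Most members called in miR29Nestin had small differences in Dnmt3a-mi5 on the deposited log2 scale. Of the 8 that rose, 6 had a difference above 0 there, with a median of 0.08 and a range of -0.01 to 0.17. Kcng4 had 0.17 ± 0.06 (adjusted p = 0.142) and Kcna1 0.15 ± 0.08 (adjusted p = 0.362). Of the 16 that fell and were tested, 3 had a difference above 0, with a median of -0.02 and a range of -0.29 to 0.16. Beside these, 35 of all 63 tested members had a difference above 0, and the median over all genes was 0.0. The counts of 6 and 3 used differences rounded to 2 decimals, so values that rounded to 0 were not counted as above it. Kcns2 had -0.06 ± 0.04, Kcnq3 -0.06 ± 0.04 and Kcnd2 0.04 ± 0.04. The 2 log2 scales compress low counts unequally, with 0 counts at 7.63 in the Dnmt3a table and at 6.59 in the miR29 table. The 0.17 of Kcng4, for example, stands for means of 38.4 counts per kb in Dnmt3a-mi5 and 28.1 in Dnmt3a-WT. Sizes are therefore not compared between the tables. The models also differ in age, library kit and normalisation, and the difference between them was not tested.

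**Figure D4:**
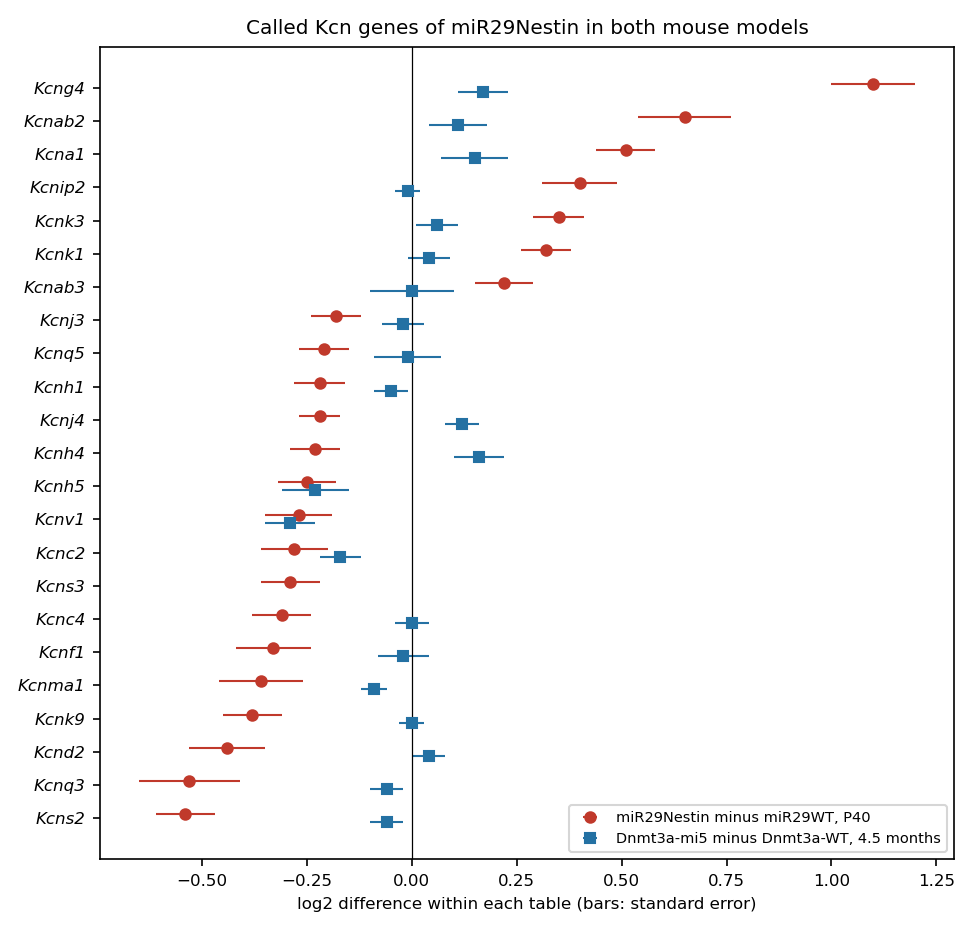
Log2 difference within each table (x axis) of 23 members called in miR29Nestin, for miR29Nestin against miR29WT (circles) and Dnmt3a-mi5 against Dnmt3a-WT (squares); bars are standard errors, and Kcns3 was tested in the first table alone. Squares lie between -0.29 and 0.17, circles between -0.54 and 1.10. The log2 scale of the Dnmt3a table compresses low counts more, so sizes are not compared between the tables.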

How the data were processed

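The authors sequenced stranded, paired-end polyadenylated RNA, with different RNA and library kits for the 2 models, per the labels' protocols. Tools named by the authors, per the submitters' processing notes, are STAR, Salmon, cutadapt and DESeq2, with builds hg19 and mm9 and no versions or roles. The values the authors deposited are on a log2 scale in the form of a DESeq2 variance-stabilising transformation, inverted here to normalised counts. Of low values for the miR29 mice, 88.0 to 90.6% came out within 0.05 reads of a whole number. In the Dnmt3a table, means of 2 sets of 4 libraries agree within 5.5e-09 for every gene, so an effect with 2 levels was removed before deposit. Its columns repeat names, so libraries are numbered by column order and map to groups only.

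Each table was tested with limma 3.58.1 (R 4.3.3; trend, Benjamini-Hochberg over all tested genes, called under 0.05), on genes with a mean at least 1 above the lowest value. Simulated data with 12014 genes had 200 changed genes and independent normal noise at the fitted variances. In them, 69% of differences of 0.3 and 100% of 0.6 were recovered for miR29Nestin. Replicate numbers of the miR29 table may pair its samples, but the labels do not say so, and the main fit has no term for them. Over genes, deviations of same-numbered libraries had correlations of 0.335, 0.204 and 0.186. Those of other numbers had -0.327 to 0.178, the highest between miR29Nestin 3 and miR29WT 2. By Uty, 1 of 3 miR29Nestin and 2 of 3 miR29WT mice were male. Whether libraries of a group come from separate litters is not stated. The alternatives were other filters, pseudocounts, scaling, a robust prior, left-out libraries, the block, a sex term and a removed-effect term. Summaries used Python 3.11.15. All 98 symbols matched GENCODE M21. Named members are those called, the most abundant of families without a call, and up to 4 genes of other lists with the smallest p. Some genes are counted but not reported here by name. Members and lists were chosen with earlier results of these data known.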

Additional observations from a re-analysis of the deposited data

Results flagged for a closer look

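In the Dnmt3a-mi5 group, library 3 stood apart for Kcnd1, a Kv4 alpha subunit, at 115 counts where the other libraries had 130 to 133. The gap took 0.869 of the range of the group, above Dixon's 95% critical value for 4 samples. Of 126 groups examined 1 exceeded the limit, and chance gives about 1 in 20. Kcnd1 did not differ beyond its error in this model (0.01 ± 0.03).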

How the results depend on the processing

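The 25 calls in miR29Nestin became 23 without a filter (Kcnj3, for example, missed at an adjusted p of 0.0574), 22 with a stricter filter and 30 with a sex term (Kcnq5 missed, 0.0614), and stayed 25 with the robust prior, equal medians or pseudocounts of 1 and 10. Over all genes, 2289 of 12014 were called in the main fit, 2360 of 18502 without a filter and 1954 of 8403 with the stricter filter. With the sex term they were 2496 of 12014. The 24 named members still tested under the stricter filter kept their results, so the calls missing there were of members no longer tested. Without 1 library the calls among members were 14 to 25, beside 1384 to 2313 over all genes. With the replicate block there were 35 calls, 12 higher and 23 lower, which include all 25 (background 25.3%). The 1 call in Dnmt3a-mi5 became 0 without a filter, 2 with a stricter filter (Kcnv1 at 0.0488), 0 with the removed-effect term (background 0.122%) and 0 to 4 without 1 library. Over all genes, 85 of 10670 were called in the main fit, 25 of 18750 without a filter and 125 of 5487 with the stricter filter. Without 1 library the calls over all genes ranged from 9 to 176, with the most when Dnmt3a-WT library 2 was left out. At an unadjusted p under 0.05 there were 17 members (19% of all genes). A replicate block for the Dnmt3a table, from the number in the column name within each set and added after seeing the data, gave 0 calls (Kcnip3 adjusted p = 0.251), but these pairs did not deviate together (correlations -0.147 to -0.555). Members with a site numbered 16 in the longest or in any annotated 3′ UTR. No named difference reversed under any setting tried. At a difference of 0.3 on the log2 scale, limma recovered 69% in simulated data of the miR29 table and 96% in those of the Dnmt3a table. These simulations changed 200 genes under independent noise and did not model the effect removed from the Dnmt3a table. They therefore do not give the power on the real data.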
